A study of Rattus norvegicus with 9 samples.

Results

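Hippocampal RNA of rats that were exposed to valproic acid (VPA) before birth and given oxytocin (OXT) after weaning was compared with that of unexposed rats. The 3 arrays of OXT-treated VPA rats and the 3 arrays of control rats were chosen by their labels, and they are 6 of the 9 arrays of the series. The other 3 arrays hold vehicle-treated VPA rats and are given beside them. All 9 rats were male Sprague-Dawley rats of 8 weeks, with 1 Rat Gene 2.0 ST array per rat. The VPA dams received VPA by mouth once in mid-gestation, and the control dams received water. The OXT-treated pups received OXT by the nose daily between weaning and early adulthood, while the vehicle-treated VPA and the control pups received vehicle. No group received OXT without VPA, so OXT-treated VPA rats and control differ by both exposures, and the effect of OXT alone in unexposed rats was not measured. The control pups came from fewer dams than there were pups, as did the VPA pups, who were drawn from 1 set of dams for both treatments, and the litter of each array is not given. Thus the p values measure the spread among these rats and do not account for littermates. Genes were read from probe sets with 1 gene symbol, which are 18511 of 30429 and stand for 18166 genes.

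VPA is an antiepileptic and mood stabilizer that also inhibits histone deacetylases, and exposure in the womb is used in rodents to model features of autism. OXT is a peptide of hypothalamic neurons whose receptor is found in the hippocampus, where it acts on social memory. Immediate early genes are transcribed within minutes when neurons fire, so their RNA follows recent activity, while markers of cell types and of neighboring regions show what a piece of tissue contains.

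The levels below are log2 values, so a difference of 1 is a doubling, and each difference is OXT-treated VPA minus control unless it is said otherwise, with its standard error (SE). The median level of an array was between 5.75 and 5.82, and arrays of the same group correlated at 0.983 or more over the probe sets. Markers of hippocampal neurons were present on every array. The granule cell gene Prox1 was at 8.32, 8.58 and 8.38 in OXT-treated VPA rats, 8.58, 8.26 and 8.32 in vehicle-treated VPA rats and 8.35, 8.17 and 8.64 in control rats. Genes of the choroid plexus, which secretes the cerebrospinal fluid beside the hippocampus, differed widely among the OXT-treated replicates. The mean level of 28 choroid plexus genes was 7.84, 6.99 and 6.02 in OXT-treated VPA rats, between 5.67 and 6.12 in vehicle-treated VPA rats, and between 6.89 and 7.54 in control rats. None of the 28 passed an unadjusted p under 0.05 against control, and their median difference was -0.14. It was 0.19 without OXT-treated replicate 3 and -0.44, with 8 genes lower, without OXT-treated replicate 1, so results that rest on 1 array are given without it as well. Ttr, the transthyretin gene of this epithelium, was at 12.83, 12.03 and 5.91 in OXT-treated VPA rats, 6.82, 8.76 and 6.80 in vehicle-treated VPA rats and 12.59, 12.23 and 12.03 in control rats. Replicates 1 and 2 of the OXT-treated VPA group lay at the control level and replicate 3 below every other array.

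Slc17a6, a glutamate transporter gene, and Calb2, the calretinin gene, had the largest higher differences of the called genes, and Nr4a1, Arc, Egr1 and Npas4, which neuronal activity induces, were among the largest lower ones. With an unadjusted p under 0.05, more than 1.5-fold and a mean level over 6.6 in at least 1 of both groups, 88 genes were higher (0.484% of all genes) and 67 were lower (0.369%) in OXT-treated VPA rats than in control. For 80 of the higher and 64 of the lower genes the OXT-treated and the control arrays did not overlap, and 19 and 10 genes passed 2-fold. The level limit was met only through the OXT-treated VPA group by 35 of the higher genes, and only through control by 16 of the lower genes. With no fold or level limit, 723 genes were higher (3.98%) and 663 were lower (3.65%) at an unadjusted p under 0.05. Counts of list members against control are made at the same p and are to be read beside these shares. The arrays did not overlap for 1187 higher (6.53%) and 1262 lower genes (6.95%). No gene passed an adjusted p under 0.05 from limma, where 1386 genes passed an unadjusted p under 0.05, and the smallest adjusted p was 0.0831. Every gene below is therefore called higher or lower at the unadjusted p only, and the adjusted p is given beside each difference printed with its SE. Between OXT-treated and vehicle-treated VPA rats, 355 genes were higher (1.95%) and 204 were lower (1.12%) at an unadjusted p under 0.05, and the smallest adjusted p was 0.489. Of the 155 genes that differed from control, 9 passed that test as well. Both tests share the OXT-treated arrays, so passing both is not independent evidence.

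**Figure D1:**
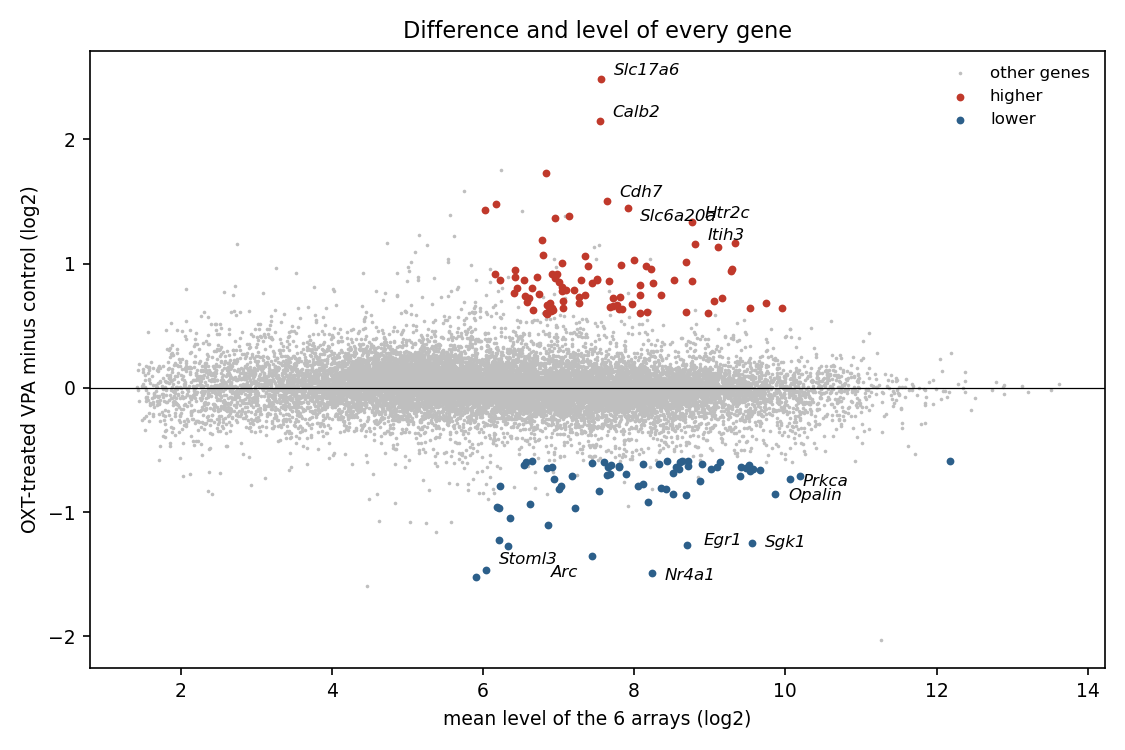
Difference between OXT-treated VPA and control rats (y axis, log2) against the mean level of the 6 arrays (x axis, log2), with 1 point per gene. The 88 higher genes are red, the 67 lower genes are blue, all other genes are grey, and Slc17a6 lies farthest up at 2.49.

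Ankrd34b was at 7.66, 7.73 and 7.81 in OXT-treated VPA rats, 7.76, 7.83 and 7.65 in vehicle-treated VPA rats and 6.81, 6.89 and 6.90 in control rats. All 6 VPA arrays lay above all control arrays, and the difference was 0.87 (SE 0.08, adjusted p = 0.0831). The nuclear receptor gene Nr2f2 was higher by 1.07 (SE 0.12), the adhesion receptor gene Adgra1 by 0.72 (SE 0.09), the transporter family gene Slc35g2 by 0.87 (SE 0.11) and the potassium channel gene Kcnk9 by 0.87 (SE 0.12), each with an adjusted p of 0.118. Pak5, a kinase of the actin cytoskeleton, was at 7.42, 7.47 and 7.55 in OXT-treated VPA rats, 7.57, 7.62 and 7.69 in vehicle-treated VPA rats and 8.02, 8.12 and 8.19 in control rats, a difference of -0.63 (SE 0.08, adjusted p = 0.118). The olfactory receptor gene Or5af1c differed by 1.01 (SE 0.12, adjusted p = 0.118) with levels between 5.50 and 5.62 in OXT-treated VPA rats and between 4.30 and 4.8 in control, under the level limit.

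Immediate early and other activity-induced genes were lower in OXT-treated VPA rats than in control. The 2 lists of such genes hold 48 measured genes, of which 22 were lower and 1 was higher, and 12 of the lower ones were past 1.5-fold and the level limit. Of 22 transcription factors, 12 were lower and none was higher, with a median of -0.32 where the median of all genes was 0.0033. Of 26 effectors, 10 were lower and 1 was higher, with a median of -0.21. Between 9 and 12 of the factors and between 8 and 11 of the effectors were lower when 1 array was left out. Earlier results on these arrays showed several of these genes lower, so the lists are not independent evidence of their direction. The promoters of 16 of the 22 lower genes were found in RefSeq (assembly GRCr8), those of Arc and Fos not among them. Of the promoters that hold control elements, 5 are printed as examples. Each runs from 250 bases before to 50 after the start of the gene, 5′ to 3′. Capitals mark CArG boxes, which the serum response factor binds, and the core TGACG of the cAMP response element (CRE), read on both strands, which is also part of the full CRE TGACGTCA. The windows are chr7:134259888-134260187 on the plus strand, chr18:26736828-26737127 on the plus strand, chr20:21054392-21054691 on the minus strand, chr1:262543524-262543823 on the plus strand and chr10:17184603-17184902 on the plus strand.
Nr4a1: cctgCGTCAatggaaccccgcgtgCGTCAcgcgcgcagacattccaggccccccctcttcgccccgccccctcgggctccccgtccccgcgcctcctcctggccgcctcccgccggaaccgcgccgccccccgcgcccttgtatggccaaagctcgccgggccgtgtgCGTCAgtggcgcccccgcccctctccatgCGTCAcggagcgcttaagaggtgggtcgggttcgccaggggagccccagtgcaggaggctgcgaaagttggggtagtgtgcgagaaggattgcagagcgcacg
Egr1: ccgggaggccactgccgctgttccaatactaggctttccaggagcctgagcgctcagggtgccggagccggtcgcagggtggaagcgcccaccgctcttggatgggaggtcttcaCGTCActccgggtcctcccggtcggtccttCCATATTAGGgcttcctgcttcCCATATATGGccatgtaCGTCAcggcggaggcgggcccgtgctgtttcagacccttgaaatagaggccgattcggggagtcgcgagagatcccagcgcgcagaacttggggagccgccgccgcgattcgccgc
Egr2: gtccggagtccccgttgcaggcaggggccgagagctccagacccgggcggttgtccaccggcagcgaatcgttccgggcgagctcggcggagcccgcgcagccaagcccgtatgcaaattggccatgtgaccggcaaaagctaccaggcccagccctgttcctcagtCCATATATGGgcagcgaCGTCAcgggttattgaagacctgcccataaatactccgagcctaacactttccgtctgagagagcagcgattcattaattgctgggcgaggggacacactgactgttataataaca
Dusp5: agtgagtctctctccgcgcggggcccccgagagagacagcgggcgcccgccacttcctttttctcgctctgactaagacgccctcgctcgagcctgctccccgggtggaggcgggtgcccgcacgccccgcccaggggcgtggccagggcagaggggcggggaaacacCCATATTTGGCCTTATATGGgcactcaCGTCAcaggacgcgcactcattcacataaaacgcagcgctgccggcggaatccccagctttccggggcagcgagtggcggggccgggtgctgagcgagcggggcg
Dusp1: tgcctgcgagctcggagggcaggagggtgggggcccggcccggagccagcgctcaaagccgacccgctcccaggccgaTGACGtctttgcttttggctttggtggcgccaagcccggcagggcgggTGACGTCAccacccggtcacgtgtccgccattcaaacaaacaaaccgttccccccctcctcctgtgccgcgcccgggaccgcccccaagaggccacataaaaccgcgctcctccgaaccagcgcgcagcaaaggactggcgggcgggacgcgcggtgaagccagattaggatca
The CRE core was found in 9 of the 16 promoters (56.2%), a CArG box in 3 (18.8%) and the full CRE in 2 (12.5%), against 21.2%, 1.64% and 1.83% of all 33469 promoters in the table. Of all 38 promoters of the measured activity-induced genes, 57.9% held a CRE core, 10.5% a CArG box and 15.8% a full CRE. The promoters of Npas4, Ier5, Sgk1, Per1, Ptgs2, Lingo3 and Dusp6 held neither a CRE core nor a CArG box. The matches are in the letters of the sequence only, and binding was not measured.

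Nr4a1, an orphan nuclear receptor with 4 CRE cores in the printed window, was at 7.28, 7.44 and 7.73 in OXT-treated VPA rats, 7.78, 7.90 and 7.5 in vehicle-treated VPA rats and 9.34, 9.18 and 8.41 in control rats. All VPA arrays were below all control arrays, control replicate 3 was the lowest of its group, and the difference was -1.49 (SE 0.24, adjusted p = 0.142). Arc, whose protein acts at the synapse and regulates AMPA receptors, was at 6.56, 6.63 and 7.11 in OXT-treated VPA rats, 7.11, 7.24 and 6.80 in vehicle-treated VPA rats and 8.60, 8.36 and 7.40 in control rats. All OXT-treated arrays lay below all control arrays while both VPA groups overlapped, and the difference from control was -1.35 (SE 0.30, adjusted p = 0.21). Egr1, a zinc finger factor with 2 CArG boxes and 2 CRE cores, was at 7.79, 7.96 and 8.44 in OXT-treated VPA rats, 8.45, 8.56 and 8.21 in vehicle-treated VPA rats and 9.63, 9.51 and 8.84 in control rats. Its difference was -1.26 (SE 0.23, adjusted p = 0.142), and OXT-treated replicate 3 was the highest of its group. Npas4, a factor induced by calcium entry in neurons, was at 5.41, 5.55 and 5.84 in OXT-treated VPA rats, 5.68, 5.78 and 6.67 in vehicle-treated VPA rats and 7.22, 7.04 and 6.22 in control rats. Here vehicle-treated replicate 3 lay above control replicate 3, while all OXT-treated arrays lay below control by a mean of -1.23 (SE 0.32, adjusted p = 0.34). The rule that named Nr4a1, Arc, Egr1 and Npas4 among the largest differences required that the OXT-treated and control arrays did not overlap.

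Fos, the AP-1 subunit that is widely used as an activity marker, had nearly equal OXT-treated arrays. It was at 6.17, 6.13 and 6.15 in OXT-treated VPA rats, 6.23, 6.36 and 6.13 in vehicle-treated VPA rats and 7.46, 7.01 and 6.78 in control rats, a difference of -0.93 (SE 0.16, adjusted p = 0.142). Egr2 was at 5.68, 5.72 and 5.79 in OXT-treated VPA rats, 6.02, 6.10 and 6.10 in vehicle-treated VPA rats and 6.98, 6.87 and 6.23 in control rats. The OXT-treated arrays were the lowest of all, and that they lay below control was required by the rule for the largest differences. The difference was -0.96 (SE 0.17, adjusted p = 0.142). Its call was lost without control replicate 1, where the difference was still -0.82 and the control mean was under the level limit. Nr4a3 differed by -0.85 (SE 0.13, adjusted p = 0.142). Dusp1, a phosphatase of MAP kinases whose printed promoter holds a full CRE, was at 8.19, 7.95 and 7.90 in OXT-treated VPA rats, 8.27, 8.08 and 7.58 in vehicle-treated VPA rats and 9.16, 8.66 and 8.67 in control rats, a difference of -0.82 (SE 0.20, adjusted p = 0.296). Dusp5, another such phosphatase with 2 adjoining CArG boxes, differed by -0.96 (SE 0.20, adjusted p = 0.187), and its call was lost without control replicate 2, where the difference was still -0.88 and the control mean was under the level limit. The exception was Rgs4, a regulator of G protein signals in neurons, at 9.73, 9.51 and 10.06 in OXT-treated VPA rats, 9.61, 9.82 and 9.99 in vehicle-treated VPA rats and 9.15, 8.91 and 8.38 in control rats, a difference of 0.95 (SE 0.21, adjusted p = 0.227). No gene of these lists differed between the VPA groups at an unadjusted p under 0.05.

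**Figure D2:**
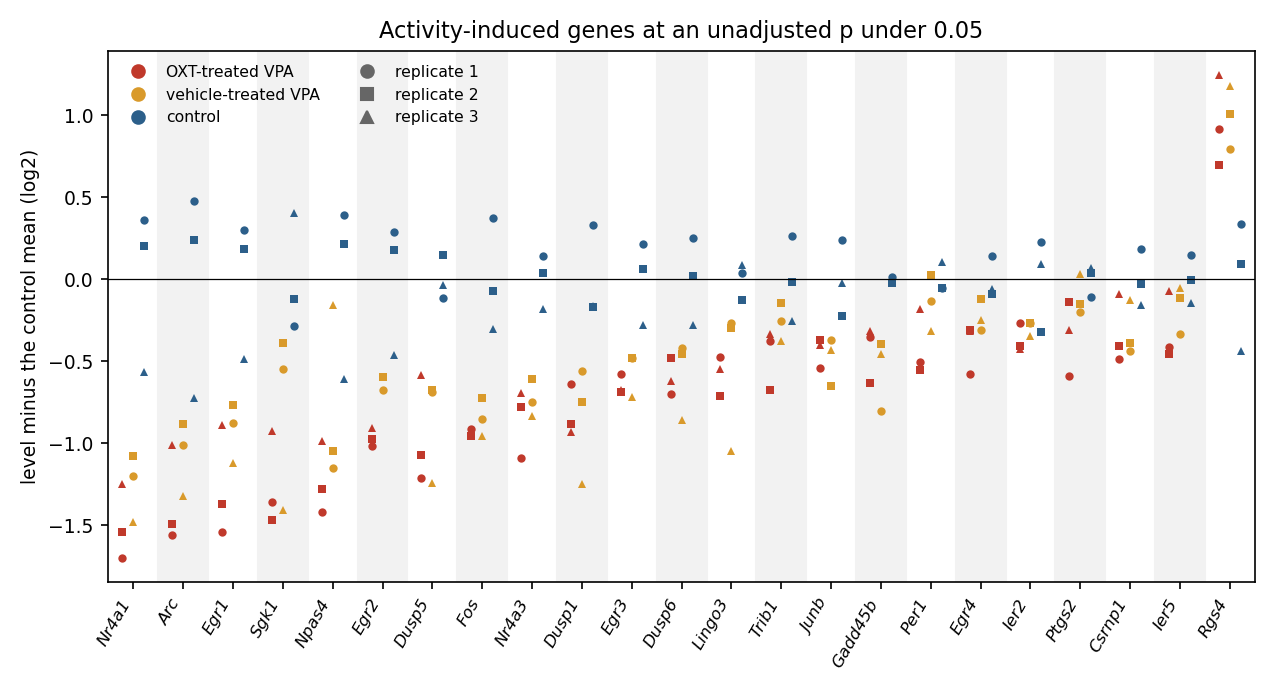
Level minus the control mean (y axis, log2) of the 23 activity-induced genes at an unadjusted p under 0.05 (x axis), with colors for the groups and symbols for the replicates. The 22 lower genes run from Nr4a1 at a mean of -1.49 on the left to Ier5, and Rgs4 at 0.95 is the only higher one.

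Genes that glucocorticoids induce were lower in part. Of 17 measured genes, 6 were lower and none was higher, with a median of -0.20, and 3 were lower without control replicate 3. Without OXT-treated replicate 2, 3 were lower and 2 were higher, and without control replicate 2, 5 were lower and 1 was higher. Sgk1, a kinase that both glucocorticoids and activity induce and that is on both lists, was at 8.83, 8.72 and 9.26 in OXT-treated VPA rats, 9.64, 9.80 and 8.78 in vehicle-treated VPA rats and 9.90, 10.07 and 10.59 in control rats. All OXT-treated arrays lay below control, as the rule for the largest differences required, with a difference of -1.25 (SE 0.29, adjusted p = 0.241). Pdk4, which inhibits the pyruvate dehydrogenase complex, was at 6.11, 6.40 and 6.41 in OXT-treated VPA rats, 6.99, 6.67 and 5.87 in vehicle-treated VPA rats and 7.05, 7.12 and 8.07 in control rats, a difference of -1.11 (SE 0.33, adjusted p = 0.437). Ddit4, an inhibitor of mTOR signaling, differed by -0.62 (SE 0.21, adjusted p = 0.514), and its call was lost without OXT-treated replicate 2 or control replicate 3. Among 15 circadian clock genes, 3 were higher and 2 were lower with a median of 0.11. The output gene Dbp was higher by 0.47 (SE 0.15, adjusted p = 0.471), Nr1d1 by 0.30 (SE 0.08, adjusted p = 0.339) and Ciart by 0.38 (SE 0.11, adjusted p = 0.434), while Per1 differed by -0.41 (SE 0.13, adjusted p = 0.462) and Nfil3 by -0.81 (SE 0.19, adjusted p = 0.276). The hour at which each rat was taken is not given, and the part of it in these results was not tested.

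Slc17a6, a vesicular glutamate transporter of subcortical neurons, had the largest difference of all called genes. It was at 9.37, 9.34 and 7.71 in OXT-treated VPA rats, 8.99, 8.86 and 7.67 in vehicle-treated VPA rats and 6.77, 6.09 and 6.10 in control rats. All VPA arrays lay above control, replicate 3 of each VPA group lay lowest, and the difference was 2.49 (SE 0.50, adjusted p = 0.163), a 5.60-fold higher level. Calb2, the gene of the calcium-binding protein calretinin, was at 9.21, 9.03 and 7.60 in OXT-treated VPA rats, 9.09, 9.13 and 7.22 in vehicle-treated VPA rats and 6.65, 6.12 and 6.64 in control rats, a difference of 2.14 (SE 0.56, adjusted p = 0.362). Calretinin also marks Cajal-Retzius cells, of whose 7 measured markers 5 were higher with a median of 0.48. Of them 3 were higher without OXT-treated replicate 1, without vehicle-treated replicate 2 or without control replicate 3, and the median was 0.74 without OXT-treated replicate 3. Calb2 is itself on that list. The mean level of the list was 6.95, 6.77 and 6.22 in OXT-treated VPA rats, 6.76, 6.73 and 6.14 in vehicle-treated VPA rats and 5.93, 5.89 and 5.82 in control rats. The orphan receptor gene Gpr165 was higher by 1.73 (SE 0.42, adjusted p = 0.29), the netrin-G gene Ntng1 by 0.98 (SE 0.25, adjusted p = 0.339) and Chrna4, a subunit of nicotinic receptors, by 1.37 (SE 0.34, adjusted p = 0.311). In each of them OXT-treated replicate 3 was the lowest of its group. It lay above every control array, which the rule that named Gpr165 and Chrna4 among the largest differences required. The synaptotagmin gene Syt9 was at 7.95, 6.72 and 5.55 in OXT-treated VPA rats, 6.59, 6.31 and 5.67 in vehicle-treated VPA rats and 5.44, 5.38 and 5.10 in control rats, a difference of 1.43 (SE 0.51, adjusted p = 0.556). Its call was lost without OXT-treated replicate 1 or control replicate 3.

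Markers of the thalamus and habenula, which border the hippocampus and where Slc17a6 is abundant, were measured beside these genes, and Slc17a6 and Ntng1 are themselves members of the list. The mean level of 20 markers was 7.75, 7.41 and 6.46 in OXT-treated VPA rats, 7.44, 7.11 and 6.37 in vehicle-treated VPA rats and 6.67, 6.44 and 6.48 in control rats. Replicates 1 and 2 of both VPA groups were thus above control, and replicate 3 of both was within or below the control range. Of the 20 markers, 6 were higher and 1 was lower, with a median of 0.76. Without OXT-treated replicate 3, 13 were higher with a median of 1.13, while 3 were higher without OXT-treated replicate 1 or 2 and 2 were higher without control replicate 2 or 3. Tcf7l2, a factor that defines thalamic neurons, was at 9.02, 8.84 and 6.23 in OXT-treated VPA rats, 8.83, 8.52 and 6.30 in vehicle-treated VPA rats and 7.07, 6.72 and 6.90 in control rats, and did not pass. Prkcd, a kinase gene of thalamic relay cells, was at 8.56, 8.33 and 6.44 in OXT-treated VPA rats, 8.31, 7.33 and 5.88 in vehicle-treated VPA rats and 6.75, 6.36 and 6.06 in control rats, and did not pass either. The part of these markers in the levels of Slc17a6, Calb2, Gpr165 and Ntng1 was not tested. Slc17a6 at 7.71, Tcf7l2 at 6.23 and the mean of the markers at 6.46 were each lowest of their group on OXT-treated replicate 3. That Slc17a6 was still above the highest control array there, at 6.77, was required by the rule that named it among the largest differences. In this bulk tissue, more cells of a type and more RNA per cell cannot be told apart.

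**Figure D3:**
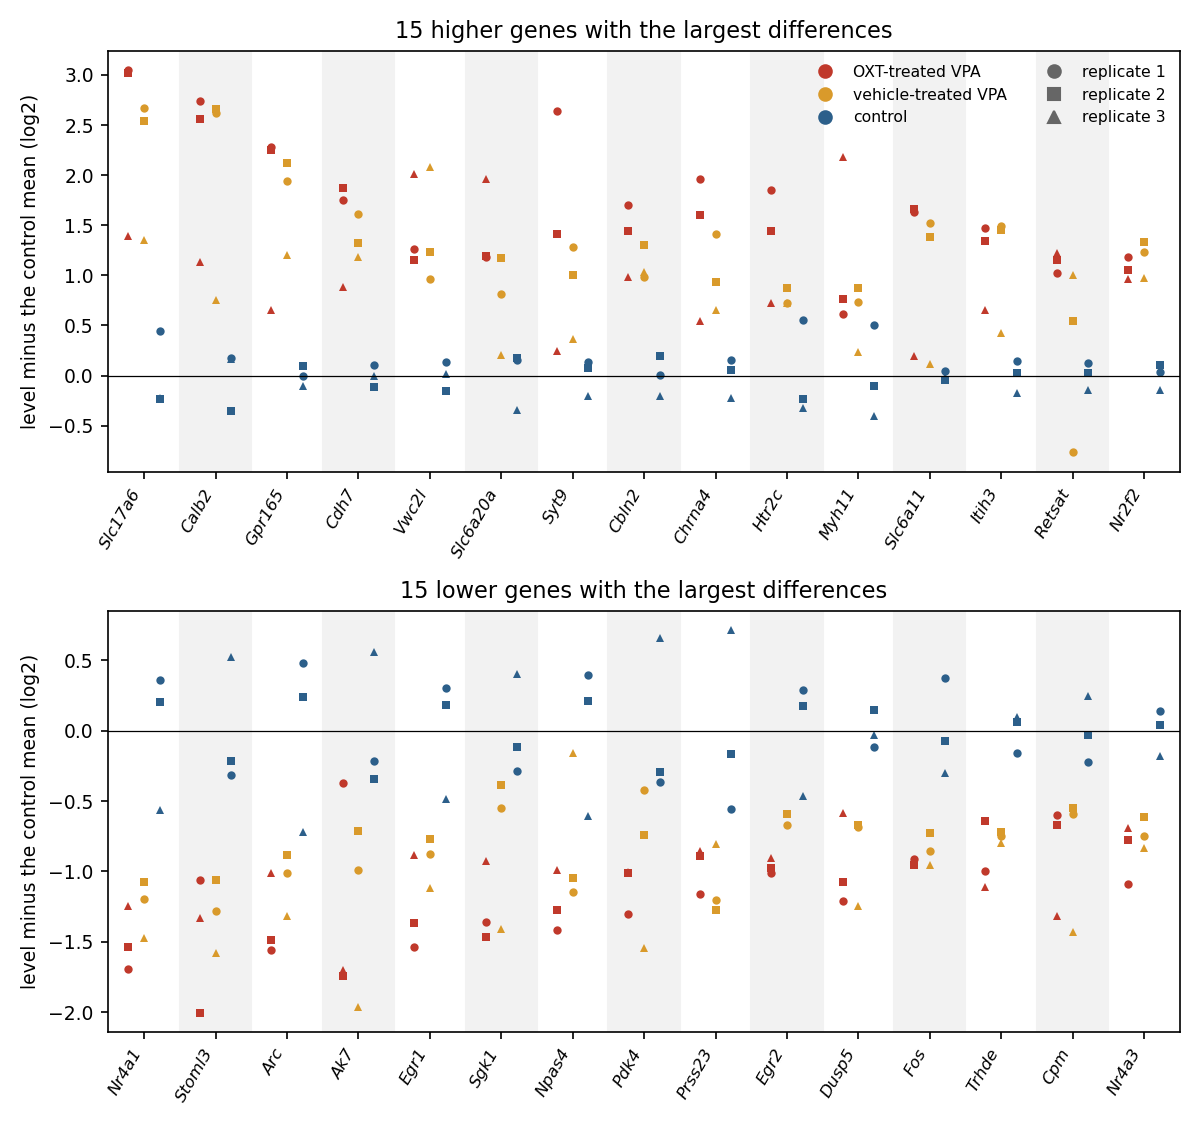
Level minus the control mean (y axis, log2) of the 15 higher genes (top) and the 15 lower genes (bottom) with the largest differences among those whose OXT-treated and control arrays do not overlap, with colors for the groups and symbols for the replicates. OXT-treated replicate 3 lies near control for Syt9 and Slc6a11, and Slc17a6 has the largest difference at 2.49.

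Cdh7, a cadherin of cell adhesion, was at 8.64, 8.76 and 7.77 in OXT-treated VPA rats, 8.5, 8.21 and 8.07 in vehicle-treated VPA rats and 7.0, 6.78 and 6.89 in control rats, a difference of 1.5 (SE 0.24, adjusted p = 0.142). Cbln2, a secreted organizer of synapses, was at 8.15, 7.89 and 7.43 in OXT-treated VPA rats, 7.43, 7.75 and 7.48 in vehicle-treated VPA rats and 6.45, 6.64 and 6.24 in control rats, a difference of 1.38 (SE 0.19, adjusted p = 0.118). For both genes all OXT-treated arrays lay above all control arrays, as the rule for the largest differences required. The VPA groups overlapped each other. Vwc2l, the gene of a secreted protein, differed by 1.48 (SE 0.30, adjusted p = 0.178), and here replicate 3 of both VPA groups was the highest array, at 7.44 in OXT-treated VPA rats and 7.51 in vehicle-treated VPA rats, against 5.57, 5.28 and 5.45 in control rats. Among 27 cadherins 7 were higher and 3 were lower with a median of 0.00, with 1 lower without OXT-treated replicate 3 or control replicate 1, and among 33 synaptic organizers 6 were higher and 4 were lower with a median of 0.0033. The contactin gene Cntn6 differed by 0.85 (SE 0.14, adjusted p = 0.142), the calsyntenin gene Clstn2 by -0.53 (SE 0.09, adjusted p = 0.142) and the pentraxin gene Nptx1 by -0.48 (SE 0.09, adjusted p = 0.142). Axon guidance genes lay on the lower side, with 7 of 41 lower, none higher and a median of -0.11. The semaphorin gene Sema3e differed by -0.48 (SE 0.09, adjusted p = 0.144) and the ephrin receptor gene Epha4 by -0.36 (SE 0.09, adjusted p = 0.311).

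Genes that are richer in the ventral than in the dorsal hippocampus were higher in OXT-treated VPA rats. The methods name the dorsal hippocampus as the tissue. Of 9 such markers 7 were higher and none was lower, with a median of 0.45, and 4 were higher without OXT-treated replicate 3 and 3 without control replicate 3. Their mean level was 7.0, 6.97 and 7.0 in OXT-treated VPA rats, 6.86, 6.93 and 7.07 in vehicle-treated VPA rats and 6.50, 6.42 and 6.43 in control rats, so the 6 VPA arrays lay above the control arrays. Nr2f2 was at 7.45, 7.32 and 7.23 in OXT-treated VPA rats, 7.5, 7.60 and 7.24 in vehicle-treated VPA rats and 6.30, 6.37 and 6.12 in control rats. The serotonin receptor gene Htr2c, which the choroid plexus expresses strongly as well, was at 9.95, 9.54 and 8.82 in OXT-treated VPA rats, 8.82, 8.97 and 8.82 in vehicle-treated VPA rats and 8.65, 7.87 and 7.78 in control rats. Its difference was 1.34 (SE 0.30, adjusted p = 0.231). OXT-treated replicate 3, which had the lowest choroid plexus genes of its group, also had the lowest Htr2c of that group. It lay above every control array, as the rule that named Htr2c among the largest differences required. The part of the choroid plexus in the level of Htr2c was not tested. The galanin receptor gene Galr1 was at 7.15, 6.89 and 6.49 in OXT-treated VPA rats, 7.17, 6.71 and 7.0 in vehicle-treated VPA rats and 5.73, 5.83 and 6.57 in control rats. OXT-treated replicate 3 overlapped control replicate 3 for Galr1, whose difference was 0.80 (SE 0.25, adjusted p = 0.468). The share of ventral tissue in each piece was not measured, and its part in these results was not tested.

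Receptors and channels differed in both directions. Of 16 ionotropic glutamate receptor genes 2 were higher and 4 were lower, with a median of -0.03, and 2 were lower without OXT-treated replicate 1 or control replicate 1 or 2. The NMDA receptor subunit gene Grin3a was at 7.51, 7.57 and 7.22 in OXT-treated VPA rats, 7.30, 7.5 and 7.34 in vehicle-treated VPA rats and 6.34, 6.51 and 6.69 in control rats, a difference of 0.92 (SE 0.13, adjusted p = 0.118). Grik4, a subunit of kainate receptors, was at 7.81, 7.82 and 7.79 in OXT-treated VPA rats, 7.94, 7.97 and 7.62 in vehicle-treated VPA rats and 8.38, 8.31 and 8.56 in control rats, a difference of -0.61 (SE 0.11, adjusted p = 0.142), just past 1.5-fold, and the call was lost without control replicate 3, where the difference was -0.54, under 1.5-fold. For both genes the OXT-treated and the control arrays did not overlap, and the VPA groups overlapped each other. Neto1, an auxiliary subunit of kainate receptors, differed by -0.71 (SE 0.19, adjusted p = 0.385), and its call was lost without OXT-treated replicate 1. The metabotropic receptor gene Grm8 was at 7.37, 7.42 and 7.49 in OXT-treated VPA rats, 7.32, 7.5 and 7.95 in vehicle-treated VPA rats and 6.6, 6.75 and 6.38 in control rats, a difference of 0.85 (SE 0.16, adjusted p = 0.142), and Grm3 differed by -0.32 (SE 0.07, adjusted p = 0.259). Of 5 metabotropic receptor genes 1 was higher and 1 lower.

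Of 13 GABA-A receptor genes 3 were higher and 1 was lower with a median of 0.08. Gabrg3 differed by 0.61 (SE 0.12, adjusted p = 0.168), Gabrb2 by 0.48 (SE 0.11, adjusted p = 0.221) and Gabra3 by 0.60 (SE 0.22, adjusted p = 0.557), while Gabra5, a subunit of extrasynaptic receptors in hippocampal pyramidal cells, differed by -0.48 (SE 0.13, adjusted p = 0.397). The call of Gabrg3 was lost without OXT-treated replicate 2 or control replicate 1 or 3, and that of Gabra3 without OXT-treated or control replicate 3. Slc6a11, a GABA transporter of astrocytes, was at 10.38, 10.41 and 8.95 in OXT-treated VPA rats, 10.27, 10.13 and 8.87 in vehicle-treated VPA rats and 8.80, 8.71 and 8.74 in control rats. Replicate 3 of both VPA groups was close to control, and the call on its difference of 1.16 (SE 0.45, adjusted p = 0.596) was lost without OXT-treated replicate 1 or 2 and without any of the 3 control arrays. Of 39 receptors for monoamines and acetylcholine 8 were higher and 2 were lower, with a median of 0.13. The dopamine receptor gene Drd5 differed by 0.76 (SE 0.22, adjusted p = 0.422), the muscarinic receptor gene Chrm1 by -0.45 (SE 0.13, adjusted p = 0.433) and Chrm3, of the same family, by -0.33 (SE 0.09, adjusted p = 0.391). The call of Drd5 was lost without control replicate 3. Of 51 potassium channel genes 8 were higher and 7 were lower, with 5 of each without OXT-treated replicate 1 and 4 lower without control replicate 2 or 3. Kcnk9, a leak channel that sets the resting potential, was at 7.94, 7.90 and 7.97 in OXT-treated VPA rats, 7.67, 7.73 and 8.08 in vehicle-treated VPA rats and 7.16, 7.10 and 6.95 in control rats, and Kcnh1 differed by -0.63 (SE 0.14, adjusted p = 0.202), with its call lost without OXT-treated replicate 1 or control replicate 3.

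Of 24 neuropeptide genes 4 were higher and 2 were lower with a median of -0.0033, and of 26 neuropeptide receptor genes 7 were higher and 1 was lower with a median of 0.16. Without control replicate 3, 4 of these receptor genes were higher, as were 4 without OXT-treated replicate 2, where the median was 0.08. Without control replicate 1, 4 neuropeptide genes were lower. Adcyap1, the gene of the peptide PACAP, was at 7.19, 6.75 and 7.20 in OXT-treated VPA rats, 6.85, 7.15 and 7.05 in vehicle-treated VPA rats and 6.24, 6.25 and 6.24 in control rats, a difference of 0.80 (SE 0.13, adjusted p = 0.142). The dynorphin gene Pdyn, whose call was lost without OXT-treated or control replicate 3, differed by 0.74 (SE 0.24, adjusted p = 0.503) and the opioid receptor gene Oprk1, whose protein dynorphin activates, by 0.57 (SE 0.12, adjusted p = 0.189). Of 19 interneuron markers 4 were higher and 3 were lower with a median of 0.0067, and Gad1 was higher by 0.41 (SE 0.10, adjusted p = 0.322). Another of them, the somatostatin gene Sst, was at 8.56, 8.48 and 8.77 in OXT-treated VPA rats, 8.80, 8.91 and 9.17 in vehicle-treated VPA rats and 8.98, 9.17 and 9.08 in control rats. The OXT-treated arrays lay below all 6 others, with a difference of -0.47 from control (SE 0.12, adjusted p = 0.322) and of -0.36 from vehicle-treated VPA rats (SE 0.12, adjusted p = 0.9997). Oxtr, the OXT receptor gene, was at 6.23, 6.46 and 6.96 in OXT-treated VPA rats, 6.6, 6.80 and 6.53 in vehicle-treated VPA rats and 6.49, 6.34 and 6.12 in control rats, and did not pass, with a difference of 0.23 (SE 0.18, adjusted p = 0.855). Oxt itself was at 6.19, 6.0 and 6.58 in OXT-treated VPA rats, 6.26, 5.95 and 5.75 in vehicle-treated VPA rats and 6.39, 6.41 and 6.29 in control rats and did not pass either. Of 7 genes of the OXT and vasopressin system 1 was lower, which was Avp at -0.54 (SE 0.15, adjusted p = 0.419). None of 10 histone deacetylase genes passed, with a median of 0.0017, and Hdac1 was at 7.28, 7.38 and 7.12 in OXT-treated VPA rats, 7.46, 7.48 and 7.54 in vehicle-treated VPA rats and 7.12, 6.92 and 7.25 in control rats.

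Some kinase and principal cell genes of the hippocampus were lower, while the medians of the principal cell lists lay nearer to 0 than the differences of the genes named. Of 19 plasticity kinases and phosphatases 5 were lower and 4 were higher, with a median of -0.17, and 3 were lower and 3 higher without OXT-treated replicate 1. Prkca, a calcium-dependent protein kinase, was at 9.66, 9.78 and 9.63 in OXT-treated VPA rats, 9.88, 9.86 and 9.45 in vehicle-treated VPA rats and 10.30, 10.41 and 10.57 in control rats, a difference of -0.74 (SE 0.13, adjusted p = 0.142). The calmodulin kinase gene Camk4 differed by -0.49 (SE 0.14, adjusted p = 0.419), its upstream kinase Camkk2 by -0.49 (SE 0.14, adjusted p = 0.434), and the adenylyl cyclase gene Adcy8 by 0.58 (SE 0.16, adjusted p = 0.385). The pyramidal cell factor gene Neurod6 was at 9.47, 9.82 and 9.89 in OXT-treated VPA rats, 9.67, 9.72 and 9.72 in vehicle-treated VPA rats and 10.26, 10.28 and 10.23 in control rats, with no overlap of the OXT-treated and control arrays and a difference of -0.53 (SE 0.11, adjusted p = 0.185). Of 10 CA3 markers 4 were lower and none was higher, but 5 had a positive and 5 a negative difference, with a median of -0.065. Among the lower ones was the copine gene Cpne4 at -0.69 (SE 0.13, adjusted p = 0.142), whose call was lost without control replicate 3. Of 8 CA1 markers only Neurod6 was lower and none was higher, with 3 positive and 5 negative differences and a median of -0.03. Of 10 CA2 markers 1 was lower and none was higher, with a median of -0.03. Of 12 markers of neurons in general 2 were higher and 2 were lower, with a median of -0.005. The granule cell marker Calb1, the gene of the calcium-binding protein calbindin, was at 8.88, 9.24 and 9.44 in OXT-treated VPA rats, 8.91, 9.07 and 9.45 in vehicle-treated VPA rats and 8.41, 8.25 and 8.33 in control rats, a difference of 0.86 (SE 0.17, adjusted p = 0.163). It was the only one of 9 granule cell markers that passed. Rspo2, a secreted amplifier of Wnt signals, differed by -0.80 (SE 0.13, adjusted p = 0.142) with levels of 7.70, 8.01 and 8.15 in OXT-treated VPA rats, 8.12, 7.91 and 8.18 in vehicle-treated VPA rats and 8.82, 8.73 and 8.72 in control rats. Of 37 genes of the Wnt pathway 3 were higher and 2 were lower with a median of 0.04, where 3.98% of all genes were higher and 3.65% lower. Without control replicate 3, 1 was higher and 4 were lower.

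Genes of meningeal fibroblasts were higher in OXT-treated VPA rats than in control and, for some, than in vehicle-treated VPA rats. Of 17 measured markers 9 were higher and none was lower than control, with a median of 0.63. Between 7 and 10 were higher when 1 array was left out, and the median was 0.41 without OXT-treated replicate 3 and 0.40 without control replicate 3. Against vehicle-treated VPA rats 7 of the 17 were higher and none was lower, with a median of 0.52, where 1.95% of all genes were higher. This was not particular to the meninges, since 18 of the 28 choroid plexus genes were also higher in that comparison, none was lower and their median was 0.77. The mean level of the meningeal markers was 7.41, 7.16 and 7.74 in OXT-treated VPA rats, 7.0, 7.25 and 6.6 in vehicle-treated VPA rats and 6.87, 7.0 and 6.66 in control rats. OXT-treated replicate 3 was the highest array, while it had the lowest choroid plexus genes of its group. Gjb2, a gap junction gene of the leptomeninges, was at 7.48, 7.30 and 7.40 in OXT-treated VPA rats, 6.76, 6.83 and 6.83 in vehicle-treated VPA rats and 6.48, 6.74 and 6.30 in control rats. The OXT-treated arrays lay above all others, with a difference of 0.89 from control (SE 0.11, adjusted p = 0.118) and of 0.59 from vehicle-treated VPA rats (SE 0.11, adjusted p = 0.75). The collagen gene Col3a1 was at 7.02, 7.08 and 7.36 in OXT-treated VPA rats, 6.74, 6.76 and 6.40 in vehicle-treated VPA rats and 6.19, 6.17 and 6.43 in control rats. It too was highest on the OXT-treated arrays, by 0.89 over control (SE 0.14, adjusted p = 0.142) and by 0.52 over vehicle-treated VPA rats (SE 0.14, adjusted p = 0.9997).

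Among the genes of type I collagen, Col1a2 was higher than control by 0.91 (SE 0.27, adjusted p = 0.442) and Col1a1 by 0.68 (SE 0.18, adjusted p = 0.363), and the call of Col1a1 was lost without OXT-treated replicate 3, where its difference was 0.51, under 1.5-fold. Aldh1a2, an enzyme of retinoic acid synthesis in the meninges, was at 6.49, 6.68 and 7.43 in OXT-treated VPA rats, 6.49, 6.95 and 6.14 in vehicle-treated VPA rats and 6.10, 6.14 and 5.68 in control rats, and its call was lost without OXT-treated replicate 3, where its difference was 0.61 and its mean under the level limit. Slc6a20a, a proline transporter, was at 8.37, 8.38 and 9.15 in OXT-treated VPA rats, 8.00, 8.36 and 7.40 in vehicle-treated VPA rats and 7.35, 7.37 and 6.85 in control rats. It was higher than control by 1.44 (SE 0.29, adjusted p = 0.168) and than vehicle-treated VPA rats by 0.71 (SE 0.29, adjusted p = 0.9997). Retsat, a retinol saturase, was at 9.56, 9.69 and 9.76 in OXT-treated VPA rats, 7.77, 9.08 and 9.54 in vehicle-treated VPA rats and 8.66, 8.56 and 8.39 in control rats, so the vehicle-treated arrays spread more widely than the groups differed. Its difference was 1.13 from control (SE 0.37, adjusted p = 0.496) and 0.87 from vehicle-treated VPA rats (SE 0.37, adjusted p = 0.9997). The zinc finger gene Zcchc12 was at 9.48, 9.39 and 9.33 in OXT-treated VPA rats, 9.13, 9.24 and 9.20 in vehicle-treated VPA rats and 8.75, 8.58 and 8.77 in control rats, and no array of a group overlapped another group. It was higher than control by 0.70 (SE 0.08, adjusted p = 0.118) and than vehicle-treated VPA rats by 0.21 (SE 0.08, adjusted p = 0.9997). With Gjb2, Col3a1, Slc6a20a, Retsat and Zcchc12, the 9 genes that passed both tests included Ogn, Lbh and Ctxn2 on the higher side and Tuba8 on the lower side, which were named after their values were seen. The 2 tests share the OXT-treated arrays. The meninges cover the hippocampus, and how much of them each piece held was not measured.

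**Figure D4:**
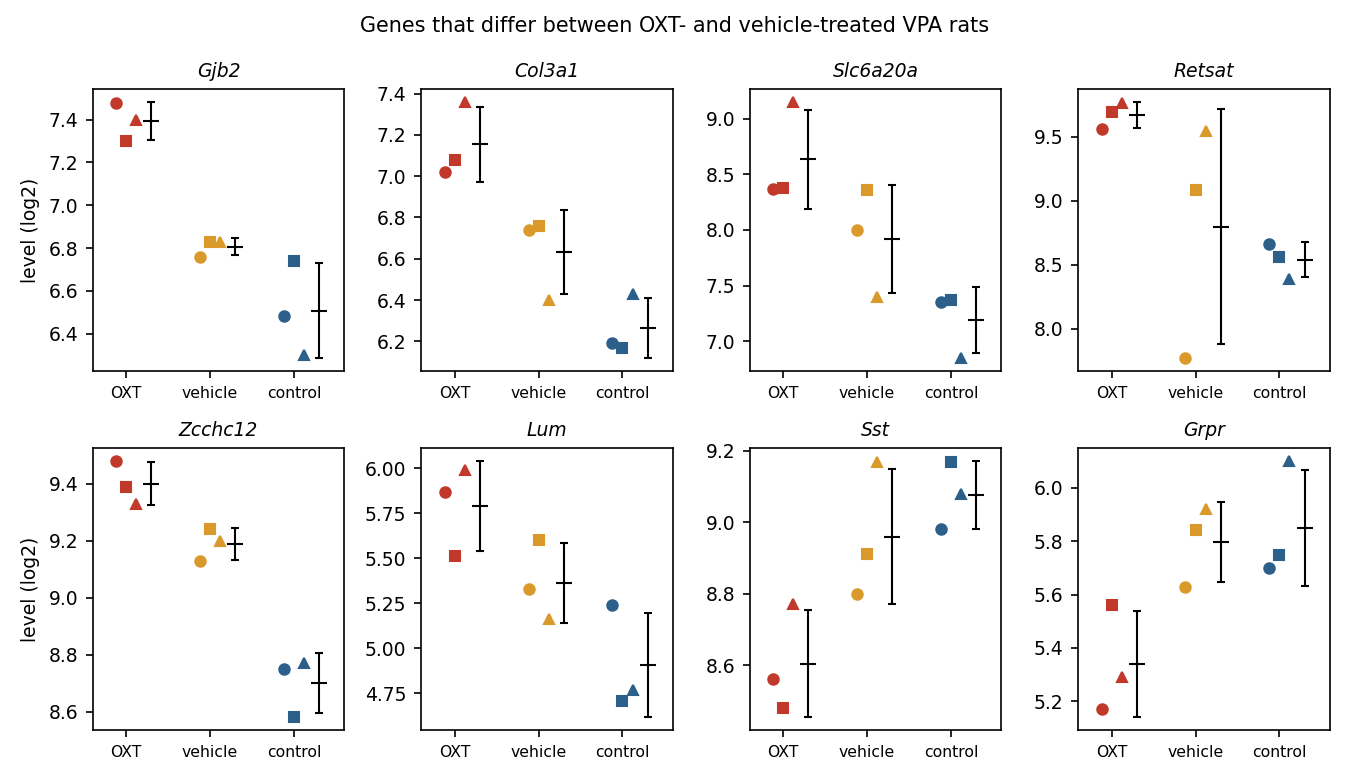
Levels (y axis, log2) of 8 genes at an unadjusted p under 0.05 between OXT-treated and vehicle-treated VPA rats, with symbols for the replicates and bars for the mean ± SD of 3 rats. Gjb2, Col3a1 and Zcchc12 are highest and Sst and Grpr lowest on the OXT-treated arrays, and each panel has its own y axis that does not start at 0.

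Genes of vessels and astrocytes were higher in part, with smaller list medians than the meninges, while Myh11, Agt and Itih3 were past 2-fold. Of 23 endothelial markers 8 were higher and none was lower with a median of 0.22, with 4 higher without OXT-treated replicate 3 and 5 without control replicate 3. Abcb1a, the efflux pump of the blood-brain barrier, was at 8.42, 8.37 and 8.62 in OXT-treated VPA rats, 8.55, 8.44 and 8.61 in vehicle-treated VPA rats and 8.11, 8.01 and 7.90 in control rats, a difference of 0.46 (SE 0.10, adjusted p = 0.194). Of 10 markers of pericytes and smooth muscle 2 were higher. One was Myh11, the myosin of smooth muscle, which was at 6.80, 6.95 and 8.36 in OXT-treated VPA rats, 6.92, 7.06 and 6.42 in vehicle-treated VPA rats and 6.69, 6.08 and 5.78 in control rats. The difference of Myh11 was 1.19 (SE 0.41, adjusted p = 0.526). OXT-treated replicate 3 stood alone at the top for Myh11, and the call was lost without control replicate 3. Of 18 astrocyte markers 7 were higher and none was lower with a median of 0.12, and 5 of the 18 had a negative difference. Without OXT-treated replicate 1 or 2, 5 were higher, and without OXT-treated replicate 3, 6 were higher and 1 was lower. Agt, the angiotensinogen gene, was at 9.53, 9.27 and 8.79 in OXT-treated VPA rats, 9.56, 9.43 and 8.40 in vehicle-treated VPA rats and 8.28, 8.06 and 8.20 in control rats, a difference of 1.02 (SE 0.30, adjusted p = 0.437). Itih3, which encodes a protein that binds hyaluronan, differed by 1.16 (SE 0.31, adjusted p = 0.363). In both genes replicate 3 of each VPA group was the lowest VPA array as it was for the mean of the thalamus markers. Whether these markers moved Agt and Itih3 was not tested.

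Genes of oligodendrocytes and of cilia were lower. Of 16 oligodendrocyte markers 6 were lower and none was higher, with a median of -0.53, and 1 was lower without OXT-treated replicate 3 or without control replicate 3. Without vehicle-treated replicate 1 or control replicate 2, 3 were lower, and without vehicle-treated replicate 3, 10 were lower. Their mean level was 9.46, 9.26 and 8.81 in OXT-treated VPA rats, 9.38, 9.50 and 8.75 in vehicle-treated VPA rats and 9.53, 9.58 and 10.07 in control rats. Replicate 3 was the lowest array of each VPA group and the highest of control. Opalin, a membrane protein of myelin sheaths, was at 9.80, 9.57 and 8.96 in OXT-treated VPA rats, 9.21, 9.68 and 8.93 in vehicle-treated VPA rats and 10.18, 10.12 and 10.58 in control rats, with no overlap of the OXT-treated and control arrays and a difference of -0.85 (SE 0.25, adjusted p = 0.437). Of 13 markers of ependyma and cilia 5 were lower with a median of -0.64, with 10 lower without OXT-treated replicate 1 and 2 lower without OXT-treated replicate 2 or 3 or control replicate 3. The adenylate kinase gene Ak7 was at 6.6, 5.23 and 5.27 in OXT-treated VPA rats, 5.98, 6.26 and 5.01 in vehicle-treated VPA rats and 6.76, 6.63 and 7.53 in control rats. Its difference was -1.27 (SE 0.45, adjusted p = 0.536). OXT-treated replicate 1 lay under the control arrays, as the rule for the largest differences required, but only just. The call was lost without OXT-treated replicate 2 or 3 and without control replicate 3. Stoml3, a stomatin family gene, differed by -1.47 (SE 0.29, adjusted p = 0.151), and its call was lost without control replicate 3, where the difference was still -1.20 and the control mean was under the level limit. None of 18 microglia markers passed, and their median was 0.04.

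**Figure D5:**
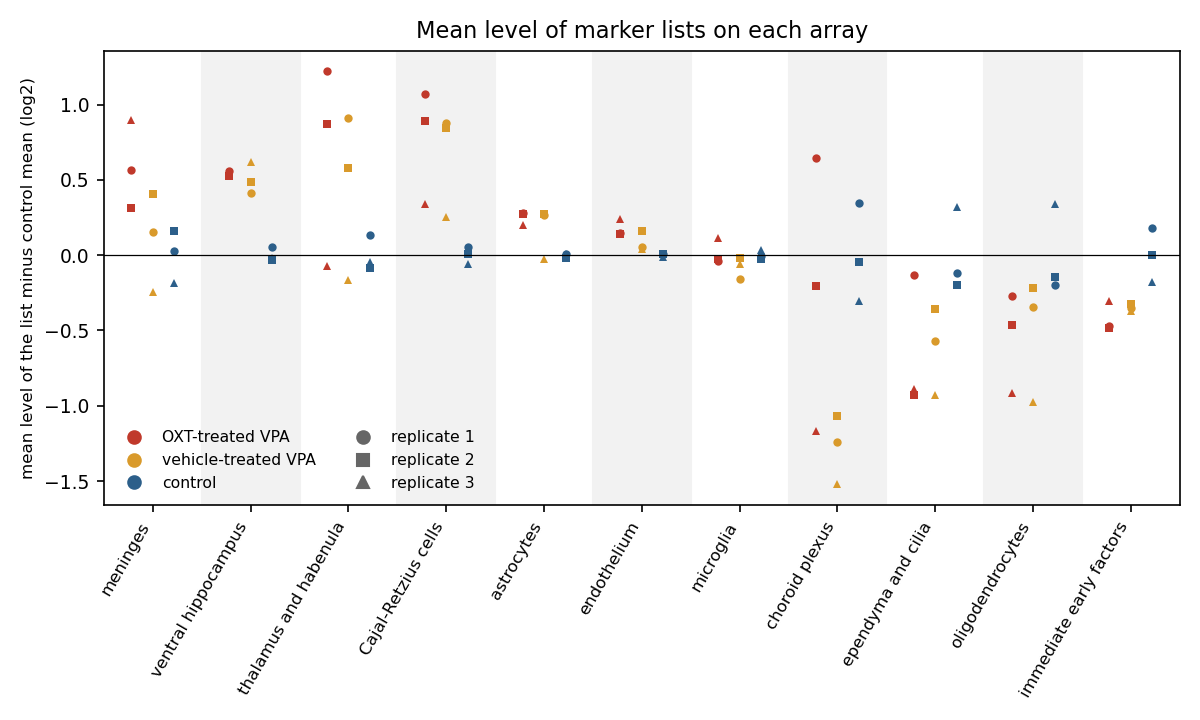
Mean level of each marker list on each array minus the mean of the 3 control arrays (y axis, log2), with lists on the x axis, colors for the groups and symbols for the replicates. The OXT-treated replicates lie close together for ventral hippocampus genes at 7.0, 6.97 and 7.0, and far apart for choroid plexus genes at 7.84, 6.99 and 6.02 before the control mean is taken off.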

How the data were processed

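RNA of the hippocampus of 9 male rats was hybridized to 1 Rat Gene 2.0 ST array each. The values are log2 expression levels per probe set, deposited by the authors in 1 table, and the submitters' processing notes name Affymetrix Expression Console. The summarization method, the genome build and the version of the annotation are not given in the sources used here. The deposited log2 values were used with no further normalization. A linear model with 1 mean per group was fitted to all 30429 probe sets of the 9 arrays with limma 3.58.1 in R 4.3.3 (lmFit and eBayes, two-sided), and p values were adjusted over all probe sets by the Benjamini-Hochberg method. Gene symbols came from the platform annotation and were replaced by the RefSeq symbol of the same gene ID where there was one, at 18394 probe sets. A gene with several probe sets was read from the 1 with the highest mean over the 9 arrays. A gene was called with an unadjusted p under 0.05, a change of more than 1.5-fold and a mean level over 6.6 in at least 1 of both groups, and lists were counted at the unadjusted p alone. The genes named were the 15 in each direction with the largest differences and no overlap of the arrays, up to 5 per list with the smallest p, up to 10 with the smallest adjusted p, and Ttr, Hdac1, Oxtr and Oxt as checks. Prox1, Tcf7l2, Ier5, Ogn, Lbh, Ctxn2 and Tuba8 were added after their values were seen. The members and the lists were chosen with earlier results of these data known. The fit was checked on simulated data. Only 3 arrays per group limit the precision. Alternatives changed the normalization, the array weights, the moderation, the groups and probe sets in the fit, the thresholds and the arrays left out, 1 at a time. Promoter sequences are those of RefSeq for assembly GRCr8, matched by symbol.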

Additional observations from a re-analysis of the deposited data

Results flagged for a closer look

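Probe sets that carry no gene symbol or more than 1 symbol were not used in the comparisons above, and some of them differed by the same criteria. Of 11918 such probe sets, 19 were higher (0.159%) and 48 were lower (0.403%) in OXT-treated VPA rats than in control. The arrays did not overlap for 15 of the higher and 33 of the lower ones, and the differences ran between -2.87 and 1.64 on the log2 scale. None passed an adjusted p under 0.05 from limma. They were not named, since the annotation gives them no single gene.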

How the results depend on the processing

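The counts of 88 higher, 67 lower and 0 genes past an adjusted p under 0.05 depended on the arrays and on how the spread was estimated. Leaving out 1 array gave between 74 and 145 higher genes, between 41 and 107 lower genes and between 0 and 3 genes past the adjusted threshold. The most higher genes were counted without OXT-treated replicate 3 (145), the most lower genes without OXT-treated replicate 1 (107), and the fewest lower genes without control replicate 3 (41), where 102 of the 155 genes kept their call. With no level limit 151 genes were higher, and with 2-fold in place of 1.5-fold 19 were higher and 10 lower. Genes past the adjusted threshold numbered 32 with array weights, 40 with trend and robust moderation, 80 with a filter on the level before the fit and 6 with 1 probe set per gene in the fit. No named gene changed the sign of its difference past the thresholds under any alternative run. Medians of lists that lay near 0 did change sign with 1 array left out, among them choroid plexus (0.19 without OXT-treated replicate 3 and 0.03 without control replicate 1). The calls of Grik4, Cpne4, Neto1, Gabrg3, Drd5, Kcnh1 and Col1a1 that ended with 1 array left out came under 1.5-fold at an unadjusted p still under 0.05. Median centring gave 84 higher and 79 lower genes. With the replicate number as a block, 100 genes were higher and 69 lower, and none passed the adjusted threshold. Same-numbered OXT-treated and control arrays had correlations of 0.01, -0.18 and -0.17 of their deviations from the group means. Those of same-numbered OXT-treated and vehicle-treated VPA arrays were 0.30, -0.15 and 0.09. These few correlations cannot settle whether the numbers pair the samples, since the litter and any batch of each array are not given. The causes of these changes were not tested.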
